A study of Sus scrofa with 6 samples.

Results

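The 7SL RNA and the Y RNAs Y1, Y3, Y4 and Y5 were followed through the small RNA lists of 6 libraries from piglet duodenum. Each list gives genome windows of 201 bases with a read count. A window was a member when it was nuclear and matched a human 7SL or Y RNA at 90% identity or more over at least 25 bases, with the match reaching past base 95 of the window, and the best match named the RNA. Of 37784 distinct windows in the series, 69 were members: 52 of 7SL in 8 genomic copies, 13 of Y3 in 3 copies, 4 of Y4 in 1 copy, and 0 of Y1 and Y5. The libraries listed 17, 17, 17, 15, 15 and 12 member windows, in the order used throughout: 524, 2129, run 1 and run 2 of 512, 2134 and 2383.

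All animals were Sutai pigs, a Chinese breed, aged 28 days, and total RNA came from whole duodenum. Piglets 524 and 2129 carried AA at position M307 of FUT1 and were labelled resistant to Escherichia coli F18, while 512, 2134 and 2383 carried GG and were labelled sensitive. FUT1 encodes a fucosyltransferase that makes the blood group H structure used by F18 fimbriae. Piglet 512 was the full sib of 524 and 2134 of 2129, the AA sib of 2383 is not in the data, and the 2 runs of 512 are 1 animal.

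7SL RNA is the scaffold of the signal recognition particle, which brings ribosomes making secreted and membrane proteins to the endoplasmic reticulum, a route used heavily by the absorptive and secretory cells of the gut lining. Y RNAs are short hairpin RNAs whose lower stem is bound by the protein Ro60 and whose U-rich tail is bound by La, and their genes lie in a cluster in mammals. Both kinds are made by RNA polymerase III, and both give short fragments in small RNA libraries.

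The windows below hold the 3′ end of Y4 or show where 2 copies of Y3 are joined to other sequence. The Y5-like locus is shown for comparison with them. Each is written 5′ to 3′ on the strand of the RNA, with the bases matched to the human RNA in capitals. The genome build is not given in the sources used here.
Y4, chr9:101909401-101909601, minus strand: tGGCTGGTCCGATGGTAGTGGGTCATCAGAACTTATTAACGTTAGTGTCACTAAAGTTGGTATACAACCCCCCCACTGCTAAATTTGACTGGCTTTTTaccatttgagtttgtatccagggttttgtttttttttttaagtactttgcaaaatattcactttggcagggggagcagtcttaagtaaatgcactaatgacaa
Y3 copy B, chr14:51584906-51585106, minus strand: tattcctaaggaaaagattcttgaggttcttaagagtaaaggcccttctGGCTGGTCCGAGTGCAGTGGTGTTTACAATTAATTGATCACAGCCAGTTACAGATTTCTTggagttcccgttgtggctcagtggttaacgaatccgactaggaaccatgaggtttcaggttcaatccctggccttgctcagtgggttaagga
Y3 copy C, chrX:80256664-80256864, minus strand: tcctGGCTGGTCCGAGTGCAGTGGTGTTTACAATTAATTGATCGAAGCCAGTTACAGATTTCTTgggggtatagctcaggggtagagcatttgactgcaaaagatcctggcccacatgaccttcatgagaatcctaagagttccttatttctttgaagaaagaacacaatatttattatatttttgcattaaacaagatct
Y5-like locus, chr9:101923476-101923676, minus strand: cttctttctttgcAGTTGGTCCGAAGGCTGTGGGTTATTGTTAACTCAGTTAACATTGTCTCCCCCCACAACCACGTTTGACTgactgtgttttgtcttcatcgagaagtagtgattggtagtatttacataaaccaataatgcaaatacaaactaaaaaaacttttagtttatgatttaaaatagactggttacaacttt

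For 7SL, RefSeq's pig gene table (Sscrofa11.1) has 1 gene of the signal recognition particle RNA class, LOC102723301, on chromosome 1. It was not matched to a copy, since the builds could not be compared. The letters GGTCCGA, from the lower stem of the Y RNAs, stood in 12 of the 13 Y3 windows, in 4 of 4 Y4 windows and in 4 of 4 windows of the Y5-like locus, counting both strands. They stood in 226 of 37376 nuclear windows (0.605%) and in 0 of 52 windows of 7SL. This motif was chosen after the windows had been read. It lies in the stretch of the Y RNAs by which the Y windows were matched, and windows of a locus overlap. Its presence there was thus largely fixed by the selection and is a description only.

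The lists held 3998 to 19473 windows and 42354 to 192861 counts per library, and left out windows under 5 counts, so an RNA that is not listed is not shown to be absent. The totals are those of the lists and not of the sequenced libraries. Libraries 2134 and 2383 stood apart, with 1.66% and 1.97% of counts on the mitochondrial genome against 8.16% to 9.35% in the other 4. Their trimmed-mean factors, which are applied on top of the total counts, also lay at the ends. These were 0.571 for 2134 and 1.57 for 2383, against 0.826 to 1.39 in the other piglets. The divisors of the counts, which include the totals, were 1.08 for 2134 and 0.655 for 2383. Among enterocyte markers, FABP2 was listed in 3 of 6 libraries (13, 7 and 18 counts in 2129, 512 run 1 and 2134) and was not listed in the rest. APOA1 was listed in all 6, from 5 counts in 524 to 364 in 2134, and the intestinal miR-215-5p at 24 to 61. The part of these differences in the results on the members was not tested. In whole tissue, fewer cells of a type and less RNA per cell cannot be told apart.

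7SL had the highest window count of the members in every library. Its windows fell into 4 well-counted copies on chromosome 1 (A to D), a pair on chromosome 5 (E and F), and 2 rare ones. Copy C, chr1:188101620-188102099 on the minus strand, covered all 300 bases of the human RNA with 6 mismatches. Summed over its windows, it had 94 counts in 524, 188 in 2129, 183 and 184 in the runs of 512, 370 in 2134 and 89 in 2383. The runs of 512 differed by 1 count. Copy B, 14.48 kb away on the same strand, differed from copy C at 5 of 300 bases. Its counts were 94, 184, 172, 174, 350 and 85, or 0.940 to 1 times those of copy C. Copy D, chr1:228874076-228874480 on the minus strand, was seen over RNA bases 1 to 234 and had 78, 154, 148, 152, 310 and 77 counts. That was 0.809 to 0.865 times copy C, so the 3 minus-strand copies kept nearly fixed proportions in every library. The 3 copies share 97.0% to 98.3% identity. Whether the same reads were counted at each was not tested, so they are not shown to be separate measures.

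Copy A, chr1:187872785-187873167 on the plus strand, was identical to copy C over the 283 bases that could be aligned. Its counts were 30 in 524, 61 in 2129, 69 and 59 in the runs of 512, 137 in 2134 and 30 in 2383. These were 0.319 to 0.377 times those of copy C, lower in 6 of 6 libraries. Elsewhere in the lists, windows of identical sequence had equal counts in 99.4% to 100% of cases; how the authors counted reads that map to several places is not stated. Strand and genomic place cannot be told apart for copies A and C. Copies E and F, chr5:81985003-81985237 and chr5:82105435-82105669 on the plus strand, were identical to each other over RNA bases 1 to 152 and carried the same counts: 10, 19, 25, 20, 40 and 8. They differed from the human RNA at 11 of 152 bases.

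**Figure D1:**
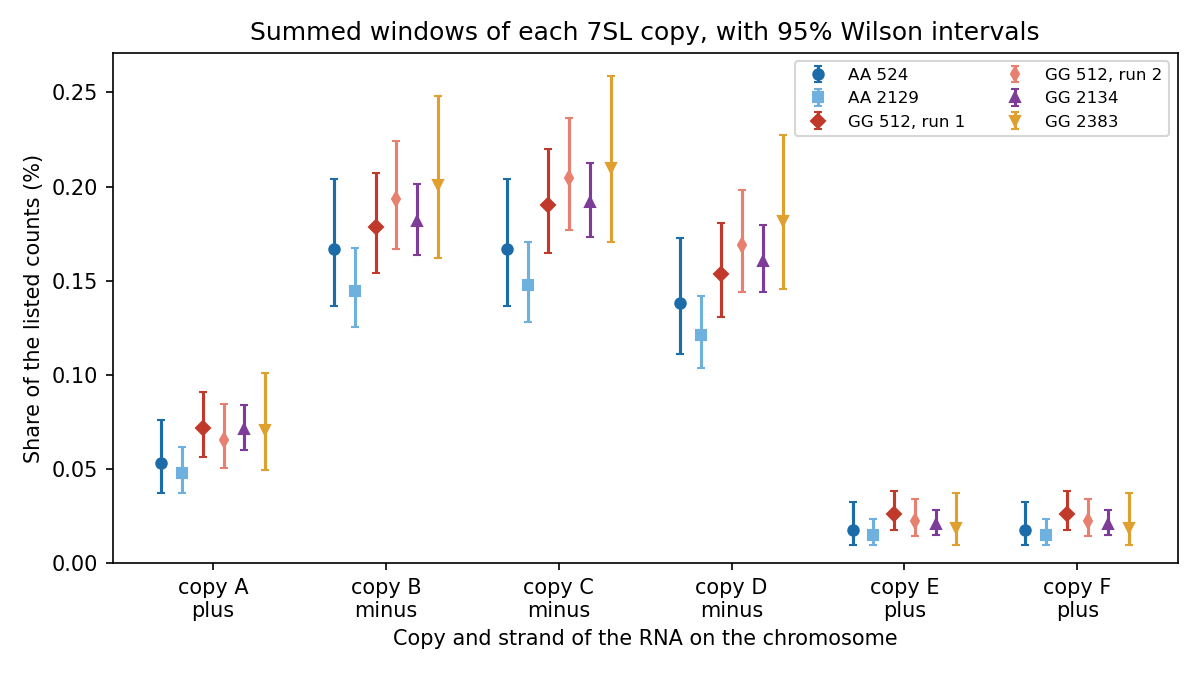
Share of listed counts in percent (vertical axis) of each 7SL copy, A to F, by library, as points with 95% Wilson intervals. Copies B, C and D reach the highest shares, copy A lies at 0.319 to 0.377 times copy C, and copies E and F have the same values.

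2 copies had identities just inside the limit. Copy G on chromosome 8 (91.3% identity) was listed with 6 counts in 2134 only. Copy H on chromosome 18 (90.2%) was listed with 6 counts in 2129 and 9 in 2134, the longest 2 lists. Just outside lay a 7SL-related locus on chromosome 4 with 88.4% identity and counts of 15, 37, 40, 41, 67 and 12.

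The place of a window on the RNA gave a view of which part of 7SL was counted. Base 101, the middle base of a window, lay near the low-coordinate end of minus-strand miRNAs: of 1175 counts in windows of miRNAs on the minus strand, 96.1% lay in windows where the low end of the mature miRNA was at base 104 to 107. On minus-strand copies base 101 is therefore read as the 3′ side of the reads. For plus-strand copies no such reading is made: the 2 plus-strand windows of a miRNA, let-7f-5p with 5 to 7 counts per library, had its low end at base 52 and 50. For copies B, C and D the window with most counts had base 101 between RNA bases 127 and 164 in every library, except copy C in 2134. In 2383 it lay at base 127 for all 3 copies, with 77, 80 and 77 counts. In 524 it lay at base 132, with 61, 64 and 61 counts. In the runs of 512 it lay at base 140 or 144, with 133 to 142 counts. The middle of 7SL forms the S domain, which binds the proteins SRP19 and SRP54.

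A smaller number of counts lay near the 3′ end of 7SL. In 524, copy B had 28 counts at base 294 and copy C had 25 at base 274. In 2129, copy B had 51 counts at base 303 and copy C 46 at base 276. In the runs of 512, copy B had 15 and 14 counts at bases 303 and 302, and in 2383 it had 8 at base 294. Positions above 300 lie beyond the last base of the human RNA. All 370 counts of copy C in 2134 were listed in 1 window at base 303, whereas copy B in the same library had 276 counts at base 144 and 74 at base 303. In the other 5 libraries copy C was listed in at least 2 windows, so the highest window of 2134 is a whole copy sum and those of the other libraries are not.

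On the plus strand, copy A's main window had base 101 at RNA base 18 in 524, 22 in 2129, 19 and 1 in the runs of 512, 40 in 2134 and 52 in 2383. The counts were 21, 52, 63, 53, 123 and 30. The 5′ end of 7SL, together with its 3′ end, forms the Alu domain. A second window at bases 176 to 183 had 6 to 14 counts in 5 of 6 libraries and was not listed in 2383.

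**Figure D2:**
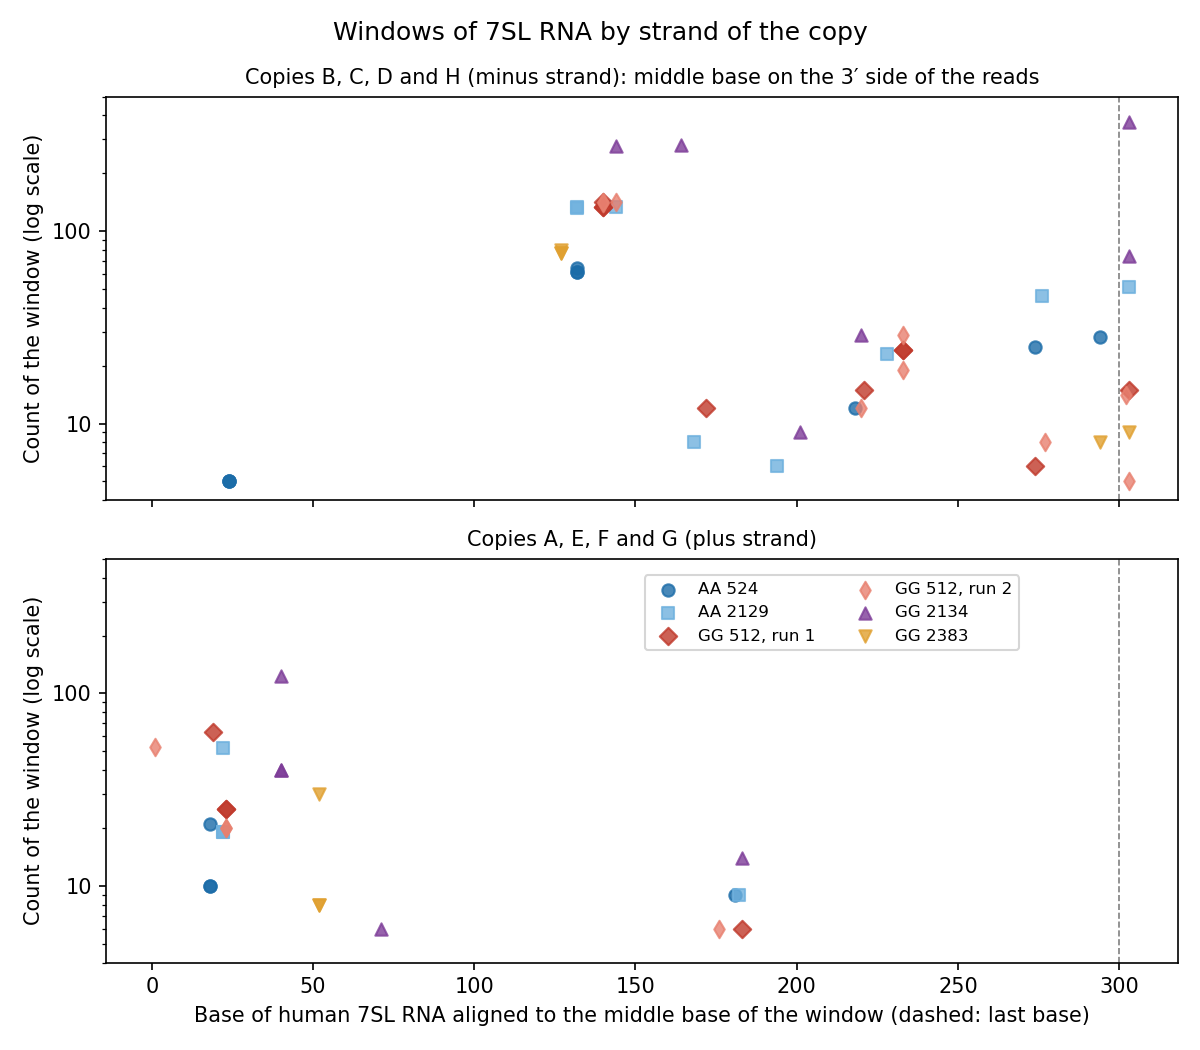
Counts of 7SL windows (vertical axis, log scale) against the base of human 7SL RNA aligned to the middle base of the window (horizontal axis), for minus-strand copies above and plus-strand copies below, with a symbol for each library. The highest minus-strand windows gather between bases 127 and 164, with a further group at the 3′ end. The point at 370 in that group is the whole sum of copy C in 2134, listed in 1 window. It does not place all of these counts at the 3′ end.

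Y4, the shortest RNA with a member window, had 1 copy at chr9:101909401-101909643 on the minus strand (96.9% identity). Its windows at RNA bases 98 to 99, just past the end of the human Y4, had 40 counts in 524, 32 in 2129, 48 and 43 in the runs of 512, 39 in 2134 and 14 in 2383. The counted reads of these windows had their 3′ side at the 3′ end of the RNA in all 6 libraries. A second window was listed in 2129 (34 counts at base 64) and in 2383 (8 counts at base 58). As a share of listed counts the copy had 0.0710% in 524 (95% Wilson interval 0.0522 to 0.0967), 0.0519% in 2129, 0.0499% and 0.0478% in the runs of 512, 0.0202% in 2134 (0.0148 to 0.0276) and 0.0519% in 2383. The interval of 2134 lay below those of the other 5 libraries. Intervals cover counting error only.

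Y3 was rarer and came from 3 places. Its full-length copy A, chr9:101887458-101887670 on the minus strand (97.1% identity), had 7 counts in 524, 13 in 2129, 6 in run 1 of 512, 14 in 2134 and 5 in 2383, and was not listed in run 2 of 512. Base 101 lay at RNA bases 68 to 80. Copies B and C hold only the first 60 bases of Y3. Copy B on chromosome 14 is followed by a PRE-1 element, a pig short interspersed repeat, and had 6, 10, 5, 0, 11 and 0 counts, where 0 means not listed. In the window of 2129 (10 counts) base 101 lay inside the PRE-1 part and outside the Y3 match, so these counts can come from PRE-1. Copy C on chromosome X is followed by the first 35 bases of a tRNA-Cys at 100% identity and had 8, 5, 6, 5, 14 and 5 counts. The low end of that tRNA part stood at window base 103 to 108 in 4 of its 5 windows, so counts at copy C can come from the tRNA part, and tRNA-Cys windows had 23 to 51 counts. The Y3 part began only at window base 138 to 155, so base 101 lay outside it in every window of this copy. Which part the counts came from was not tested, and Y3 and tRNA reads cannot be told apart at this copy.

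No window met the rule for Y1 or Y5. The nearest to Y5 was a locus at chr9:101923476-101923680 on the minus strand, with 87.3% identity over 71 bases. It had 61 counts in 524, 54 in 2129, 47 and 47 in the runs of 512, 40 in 2134 and 30 in 2383. Base 101 lay outside the match, which ended at RNA base 71. Counted on from there, it lay at 85 to 89, just past the 84 bases of human Y5. The locus exceeded the highest Y4 window in 5 of 6 libraries, all but run 1 of 512. In 2129 and 2383 that window is only part of Y4. The Y4 copy sum was above the locus in 2129 (66 against 54) and below it in 2383 (22 against 30). The locus lay 14.07 kb from Y4, which lay 21.94 kb from Y3 copy A. These 3 loci are on 1 strand of chromosome 9 and are close together, as Y RNA genes are in other mammals. Its share of counts was 0.108% in 524 (0.0843 to 0.139) and 0.0207% in 2134 (0.0152 to 0.0282), the highest and lowest of the 6.

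**Figure D3:**
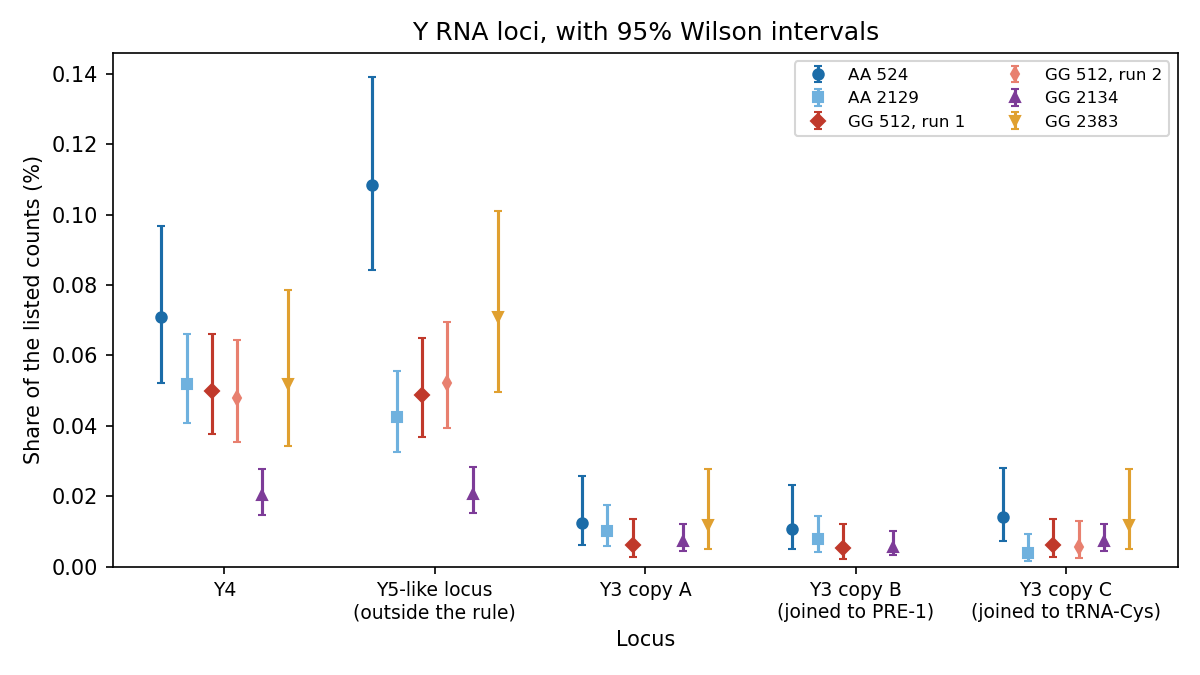
Share of listed counts in percent (vertical axis) of Y4, the Y5-like locus and the 3 Y3 copies, by library, as points with 95% Wilson intervals; a missing point means not listed. Y4 and the Y5-like locus lie above the Y3 copies in each library, and 2134 is lowest for both.

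The comparison of GG with AA asked whether the members differ between piglets labelled sensitive and resistant. For each RNA the highest window per library was scaled by trimmed-mean factors, the runs of 512 were taken as 1 animal, and log2 values were tested in limma across 2639 features. No feature passed an adjusted p of 0.05 (0%), and 271 (10.3%) had an unadjusted p under 0.05. 3 of the 5 RNAs were tested and 0 of these 3 passed. The median log2 difference over all features was 0.21, and 0.05 when scaled by total counts alone. With 2 against 3 animals, p-values measure only the spread between these piglets.

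Scaled counts of 7SL were 83.0 in 524 and 130 in 2129, against 160 in 512, 342 in 2134 and 122 in 2383. Piglet 2134 was far above the rest, and the groups overlapped at 2129 and 2383. The value of 2134 is a whole copy sum listed in 1 window, while those of the other piglets are parts of a copy. The highest windows are therefore not like for like. AA piglets averaged 106 ± 33.1 (SD, n = 2) and GG piglets 208 ± 117 (SD, n = 3). GG minus AA was 0.85 on the log2 scale (SE 0.45, limma adjusted p = 0.476). Summed over the windows of a copy, 7SL had scaled counts of 124 and 182 in the AA piglets, against 208 in 512, 329 in 2134 and 139 in 2383. The groups overlapped here too. The log2 difference by copy sum was 0.50 (SE 0.42, limma adjusted p = 0.615). Without 2134 the difference by highest window was 0.42, without 524 it was 0.44, and with copy sums these were 0.17 and 0.13. In both sib pairs the GG piglet was the higher. With the sib pair as a block, which leaves 2383 without weight, 7SL passed by highest window (1.20, SE 0.35, limma adjusted p = 0.0127), when 207 of 2603 features passed (7.95%), but not by copy sum (0.87, limma adjusted p = 0.239).

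As a share of listed counts, 7SL copy C made up 0.167% in 524 and 0.148% in 2129, against 0.197% in 512, 0.192% in 2134 and 0.210% in 2383. All 3 GG piglets lay above both AA piglets on this scale, as 598 of 2770 features did (21.6%). The interval of 524 (0.136 to 0.204) overlapped those of all GG libraries, and that of 2129 (0.128 to 0.171) lay below those of run 2 of 512 and of 2134, and just below that of 2383.

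**Figure D4:**
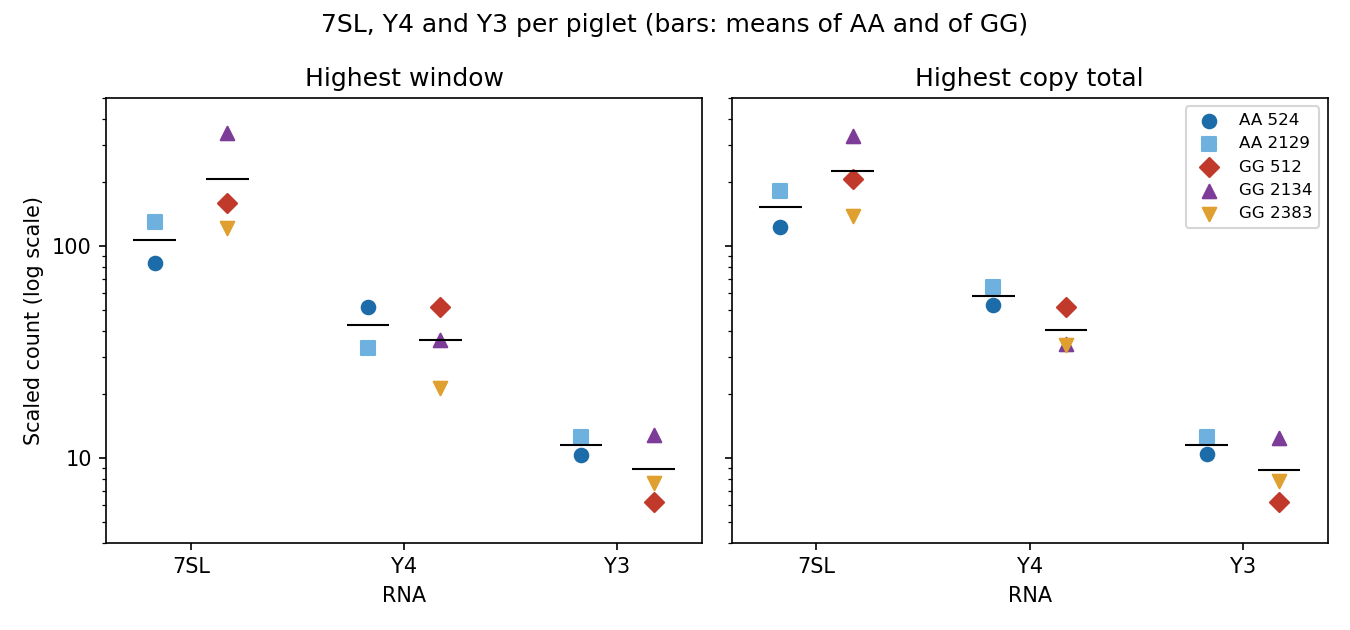
Scaled counts (vertical axis, log scale) of 7SL, Y4 and Y3 by piglet, AA on the left and GG on the right of each RNA, by highest window and by copy sum, with horizontal lines at the group means and the runs of 512 summed. By highest window 2134 stands at 342 for 7SL, and 2383 at 122 lies within the AA range of 83.0 to 130. The 342 is a whole copy sum in 1 window, unlike the values of the other piglets.

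Y4 had scaled counts of 51.9 in 524 and 32.9 in 2129, against 51.4 in 512, 36.0 in 2134 and 21.4 in 2383. The values of 2129 and 2383 rest on part of the copy (34 of 66 and 14 of 22 counts). Those of the other piglets are whole copy sums, so the highest windows are not like for like. On this scale the groups overlapped, and the log2 difference was -0.27 (SE 0.41, limma adjusted p = 0.743). Without 2383 it was 0.091, without 524 it was -0.042, without 2129 it was -0.57 and without 512 it was -0.60. By copy sum, 524 had 52.6 and 2129 had 63.9, against 51.6 in 512, 34.7 in 2134 and 34.3 in 2383, with all GG piglets below both AA piglets, as in 364 of 2770 features (13.1%). The means were 58.2 ± 8.02 (SD, n = 2) and 40.2 ± 9.86 (SD, n = 3), and the log2 difference was -0.54 (SE 0.31, limma adjusted p = 0.517).

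Scaled counts of Y3 were 10.4 in 524 and 12.6 in 2129, against 6.22 in 512, 12.9 in 2134 and 7.63 in 2383. Piglets 512 and 2383 were lower than both AA piglets and 2134 was the highest of the 5. The log2 difference was -0.38 (SE 0.48, limma adjusted p = 0.691), and -0.42 from the chromosome 9 copy alone. The highest Y3 windows had only 5 to 14 counts, at or near the cut-off of the lists. Those of 524 (8 counts) and of run 2 of 512 (5 counts) came from copy C, where tRNA reads cannot be told apart. In the value from chromosome 9 alone, the unlisted run 2 of 512 was set to 2 counts. The main difference of -0.38 became -0.22 without 512, -0.24 without 2129, -0.60 without 524 and -0.66 without 2134. The Y5-like locus stood at 79.1 in 524 and 52.3 in 2129, against 53.1 in 512, 36.9 in 2134 and 45.8 in 2383. The groups overlapped, and GG minus AA was -0.51 on the log2 scale (SE 0.30, limma adjusted p = 0.481).

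The ratio of 7SL to Y4, both as copy sums within a library, needs no scaling. It was 2.35 in 524 and 2.85 in 2129, against 4.03 in 512, 9.49 in 2134 and 4.05 in 2383. All GG piglets lay above both AA piglets, as did the ratio to Y4 of 1044 of 2769 features (37.7%), and 2134 was far above the others. The runs of 512 gave 3.81 and 4.28. This ratio was chosen after its values were seen and was not tested.

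Other RNAs made by RNA polymerase III gave a frame for these levels, by the highest window in each library. 7SK, a regulator of transcription elongation, had 14, 40, 18, 22, 35 and 10 counts, below the highest 7SL window in every library. All windows have 1 length, so these counts are not per length of RNA. The spliceosomal U6 had 12 to 21 counts and ribosomal 5S had 18 to 51. RPPH1, the RNA of ribonuclease P, was listed only in 2129 and run 2 of 512, with 7 counts each, and RMRP and the vault RNA VTRNA1-1 were not listed. RMRP, VTRNA1-1 and RPPH1 did not reach the filter for the limma test, and 0 of the 2639 features tested, which hold the regions of the other RNAs that did, passed. PRE-1 repeats, searched for the joined Y3 copy and found in 1233 windows, had 109, 390, 110, 139, 245 and 91 counts, above the highest 7SL window in 524, 2129 and 2383.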

How the data were processed

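Small RNA of duodenum was sequenced from 5 piglets in 6 libraries. The deposited lists hold, per the file headers, a count for each window of 201 bases with its sequence; the authors' counts are whole numbers of at least 5, and no normalization is recorded. Aligner, build and filters were not given in the sources used here, and RNA was extracted with Trizol per the labels' protocols. The totals, 42354 to 192861 listed counts, limit precision, and shares carry 95% Wilson intervals.

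Windows were matched with blastn (BLAST 2.17.0, word size 7) to human 7SL and Y RNAs. The query sequences of these and of the other RNAs, miRNAs and proteins were written from memory and not checked against a database. No pig proteins were given, so of the cell type markers only FABP2, APOA1 and miR-215-5p were searched. Windows of 1 RNA and strand within 1000 bases formed a copy. Overlapping windows were merged into features valued at the highest window, and each RNA was 1 feature; the runs of 512 were summed. Unlisted features were set to 2 counts; features with at least 10 counts in at least 2 piglets were kept. Counts were scaled by trimmed means of log ratios (30% and 5% trimmed), and log2(scaled + 1) was tested in limma 3.58.1 (R 4.3.3) with trend and Benjamini-Hochberg adjustment at 0.05. The script was tested on simulated data.

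The sib pairs come from the labels. Deviations of sibs from genotype means taken without 2383 correlated at 0.17 across 2639 features, with 2 pairs only. All 5 RNAs were described, with up to 3 windows of different sequence and highest mean scaled count per RNA and the window spanning most of the RNA, and the 3 features nearest to 7SL in pattern. The members and lists were chosen with earlier results of these data known. Window sequences of 7SL and of Y3 copy A are not reported here.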

Additional observations from a re-analysis of the deposited data

How the results depend on the processing

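Across 27 alternative settings the log2 difference of 7SL was positive, from 0.13 to 1.20. With both AA piglets kept, its limma adjusted p ran from 0.0127 to 0.913. Some settings left 7SL at its main value of 0.85. These were 0 or 4 counts where unlisted, no filter, the 95% identity limit and Y3 from chromosome 9 alone. They add nothing on its sign. The difference of Y3 was negative in 26 of 26, from -0.66 to -0.21, and that of Y4 negative in 24 of 26, from -0.77 to 0.091. The number of members past the threshold was 0 in all settings except with the sib pair as replicate block, where it was 1 (7SL); Y4 was then 0.091 (limma adjusted p = 0.924). Leaving out each piglet gave 0.42 to 1.20 for 7SL, -0.66 to -0.22 for Y3 and -0.60 to 0.091 for Y4, the 0.091 being without 2383, and no member passed; the cause was not tested. Over all features, limma called 0 in the main setting and 8 with scaling by total counts alone. It called 37 with no filter, 4 without 2134 and 207 with the replicate block. With copy sums it called 46 when scaled by total counts, 85 with the block and 4 without 2134. Calls without 524 or without 2129 are not given, since 1 AA piglet remains. Copy sums, the 85% identity limit and Y3 from chromosome 9 alone were added after seeing the data. Plus-strand copies alone gave 0.90 for 7SL and no value for Y3 and Y4. The planned count model was not run, since the lists are records and were not classed as a table of counts. They also leave out counts under 5. That cut-off, 5 animals and single windows that split or merge limit what can be seen.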

Other observations

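Several loci related to 7SL below the identity limit were counted in every library. A locus on chromosome 13 (86.9% identity) had 37, 76, 92, 92, 161 and 52 counts, and a second on chromosome 4 (87.3%) had 10, 24, 24, 28, 41 and 8. A Y3-related locus on chromosome 16 (88.9%) was listed with 8 counts in 2129 and 6 in 2134.

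Of 1515 features listed in every library, 3 had the pattern nearest to 7SL by Pearson's r of scaled log2 counts over the 6 libraries, 2 of them from 1 animal: chr7:82398739-82398940 (r = 0.990; 6, 10, 9, 9, 17 and 6 counts), chr15:114830357-114830767 (r = 0.986; 5, 9, 9, 8, 18 and 5 counts) and chr4:61495048-61495265 (r = 0.984; 11, 22, 21, 23, 48 and 15 counts). The 7SL values used were the highest windows, of which that of 2134 is a whole copy sum and the others parts of a copy. How far this sets the values of r was not tested. The chr7 and chr15 features had only 5 to 18 counts, at or near the cut-off of the lists.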
